A study of Mus musculus with 48 samples.

Results

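Transcripts of 3 CC chemokines, Ccl2, Ccl7 and Ccl5, and of the CX3C chemokine Cx3cl1, known as fractalkine, were measured in NMM cells, a mouse melanoma line that carries mutated NRAS. The members were found by gene symbol, and they are 4 of the 49671 genes in the count table. Cells had received IFNγ at 100 ng/ml together with TNF at 10 ng/ml (called the combination), TNF alone (0.1, 1 or 10 ng/ml), IFNγ alone (0.01, 1 or 100 ng/ml), TGF-β at 10 ng/ml, lymphotoxin at 2 ng/ml, IFNα1 at 5000 U/ml or IL-2 at 6000 U/ml, or were left unstimulated. These 11 stimuli and the unstimulated cells make 12 groups of 4 libraries, with 1 library each at 2, 6, 12 and 24 h of continuous stimulation. The durations of a group are not replicates, so a value at 1 duration carries no error. All 48 libraries are bulk RNA of this 1 line. The labels do not say whether the libraries of a group came from separate cultures, so p-values measure the spread between these libraries only. That spread includes differences between stimuli in their course over the durations, because each has 1 library per duration.

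Chemokines are small secreted proteins that bind G protein-coupled receptors on leukocytes and draw these cells along a gradient. Ccl2 and Ccl7 attract monocytes, chiefly through the receptor Ccr2. Ccl5 attracts T cells, monocytes and other leukocytes, in part through Ccr1. Cx3cl1 is made as a membrane-anchored protein from which proteases release a soluble form, and its receptor Cx3cr1 is found on monocytes, NK cells and effector T cells. TNF is known to switch on chemokine genes through NF-κB, and interferons through STAT and IRF factors. The comparisons ask how each cytokine, its dose and its duration changed the chemokine transcripts that tumour cells themselves make.

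The families are named for the first cysteines of the mature protein. The coding bases around them are printed here because they show which members are CC chemokines and which is not. The stretches are 5′ to 3′ on the coding strand of GENCODE transcripts of the GRCm38 build, and capitals mark the cysteine codons.
Ccl2: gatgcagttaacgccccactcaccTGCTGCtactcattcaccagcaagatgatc
Ccl7: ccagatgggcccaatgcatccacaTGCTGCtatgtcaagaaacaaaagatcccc
Ccl5: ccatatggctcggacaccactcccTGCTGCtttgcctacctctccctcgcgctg
Cx3cl1: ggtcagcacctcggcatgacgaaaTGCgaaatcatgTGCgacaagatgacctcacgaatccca
In Ccl2, Ccl7 and Ccl5 the codons adjoin, and in Cx3cl1 there are 3 codons between them.

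In GRCm38, Ccl2 (ENSMUSG00000035385) lies on the forward strand of chromosome 11 from 82035571 to 82037453. Ccl7 (ENSMUSG00000035373) follows it on the same strand from 82045712 to 82047525, starting 8258 bp after the end of Ccl2. Ccl5 (ENSMUSG00000035042) lies on the reverse strand of chromosome 11 from 83525778 to 83530518. Cx3cl1 (ENSMUSG00000031778) is on the forward strand of chromosome 8 from 94772009 to 94782427. The coding sequences of Ccl2 and Ccl7 are identical at 72.4% of 290 aligned positions. No stretch of 31 bases of Ccl2, Ccl7 or Cx3cl1 transcripts occurred in another gene's transcripts, and 5 of 928 did for Ccl5. The gene Gm17268 overlaps Ccl2 on the opposite strand and had 0 counts in all 48 libraries.

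Libraries held 5612907 to 9663207 counts, and 1 count was worth 0.105 to 0.179 CPM, the count scaled to a common library total after TMM adjustment. All 4 members passed the filter on low counts in the whole table, which left 12203 tested genes. Their lowest counts in any library were 67 for Ccl2, 20 for Ccl7, 60 for Ccl5 and 47 for Cx3cl1. Of 8 melanocytic markers, Mitf was the 1 with a median of at least 1 CPM (6.70 CPM), and Dct and Mlana had 0 counts in every library. The summed level of the 8 markers lay between 4.26 and 13.9 CPM. All 6 markers of T and NK cells (Cd3e, Cd8a, Cd4, Nkg7, Ncr1 and Prf1) had 0 counts in all 48 libraries. Of 6 macrophage markers, Adgre1 had 0 counts in all libraries, Ptprc had 14 in all, and Cd68 was the 1 with a median of at least 1 CPM (3.30 CPM). Cdh5 of 3 endothelial markers (median 5.35 CPM) and Pdgfra (7.45 CPM) and Dcn (17.5 CPM) of 3 fibroblast markers also had medians above 1 CPM. The summed level of the 3 fibroblast markers was 16.1 to 30.01 CPM with the combination, 24.3 to 68.5 CPM with TNF at 10 ng/ml, 14.7 to 22.6 CPM with IFNγ at 100 ng/ml and 22.1 to 55.3 CPM with IFNα1, against 23.2 to 36.2 CPM in unstimulated cells. Only the IFNγ range of these 4 lay wholly outside the unstimulated one, and the part of these genes in the chemokine changes was not tested.

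All 4 chemokine transcripts were present without a stimulus, and the combination gave the highest mean level of each over the 4 durations. Mean log2 CPM with the combination was 10.82 ± 0.55 for Ccl2, 7.20 ± 0.95 for Ccl7, 8.60 ± 2.81 for Ccl5 and 5.83 ± 2.49 for Cx3cl1 (SD over durations, n = 4). In unstimulated cells it was 4.68 ± 0.53 for Ccl2, 3.02 ± 0.42 for Ccl7, 4.00 ± 0.46 for Ccl5 and 4.80 ± 0.53 for Cx3cl1. These SDs include the course over the durations, in which Ccl5 with the combination was highest at 24 h and Cx3cl1 at 2 h. In bulk RNA, a change in the share of cells that make a transcript cannot be told apart from a change in the amount made per cell.

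**Figure D1:**
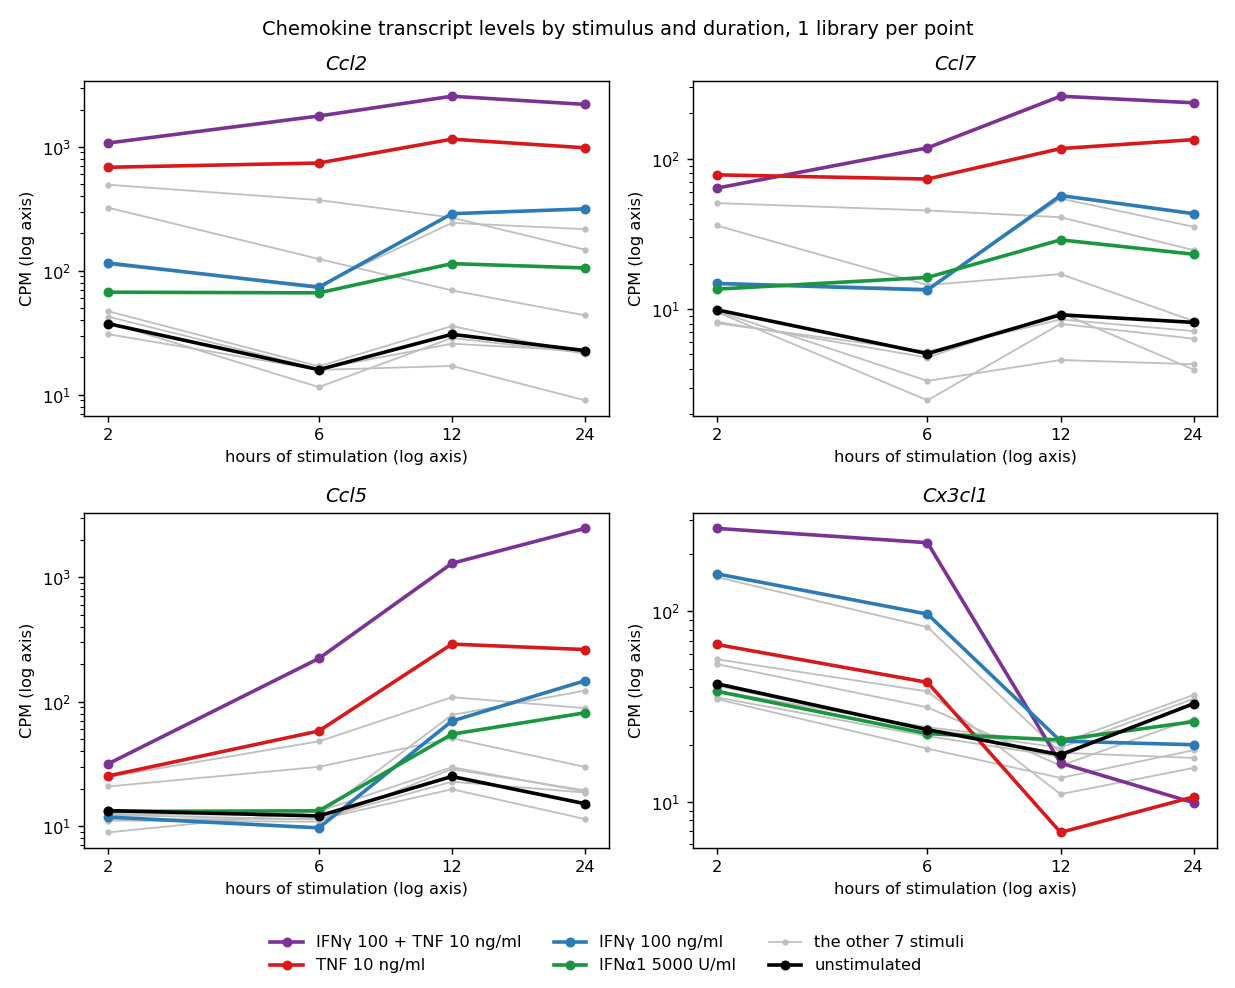
CPM (log axis) of the 4 chemokine transcripts against hours of stimulation (log axis), with 1 library per point and lines joining the libraries of a group. The combination (purple) reaches 2560 CPM of Ccl2 at 12 h and 2465 CPM of Ccl5 at 24 h, while Cx3cl1 with the combination is at 273 CPM at 2 h and 9.91 CPM at 24 h, against 41.8 and 32.8 CPM in unstimulated cells (black).

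How many of the 4 members rose differed between cytokines and doses. Over the 4 durations together, the combination raised all 4 members, where 20.9% of all tested genes were called higher. The median log2 change was 4.81 over the members and -0.03 over all genes. For Cx3cl1 this call averages higher levels at 2 h and 6 h and lower ones at 12 h and 24 h. It was lost without the 2 h or the 6 h libraries and with the compared groups fitted alone. TNF at 10 ng/ml raised 3 members (9.83% of genes higher) and TNF at 1 ng/ml raised 2 (2.01%). IFNγ at 100 ng/ml raised 2 members (12.8%), IFNγ at 1 ng/ml raised 2 (9.51%) and IFNα1 raised 1 (6.18%). Median log2 changes of the members were 3.27, 2.19, 1.69, 1.60 and 1.19 in the same order, and those of all genes were -0.02, -0.01, -0.02, -0.02 and -0.03. No member was called with TNF at 0.1 ng/ml, where 0.0164% of genes were called and Ccl2 and Ccl7 had an unadjusted p under 0.05. None was called with TGF-β (8.28% of genes called), or with IFNγ at 0.01 ng/ml, lymphotoxin or IL-2 (0% called each by edgeR and by DESeq2, with 229, 195 and 152 genes at an unadjusted p under 0.05), and in these 4 groups no member had an unadjusted p under 0.05. Calls are from edgeR's quasi-likelihood test, with p-values adjusted after Benjamini and Hochberg over all 12203 genes and a threshold of 0.05. DESeq2 called Ccl2 with TNF at 0.1 ng/ml (adjusted p = 0.000775) and no member in the other 4 groups. With TNF at 0.1 ng/ml and unstimulated cells fitted alone, Ccl5 was called (1.00, adjusted p = 0.000879). All 11 comparisons share the same 4 unstimulated libraries.

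**Figure D2:**
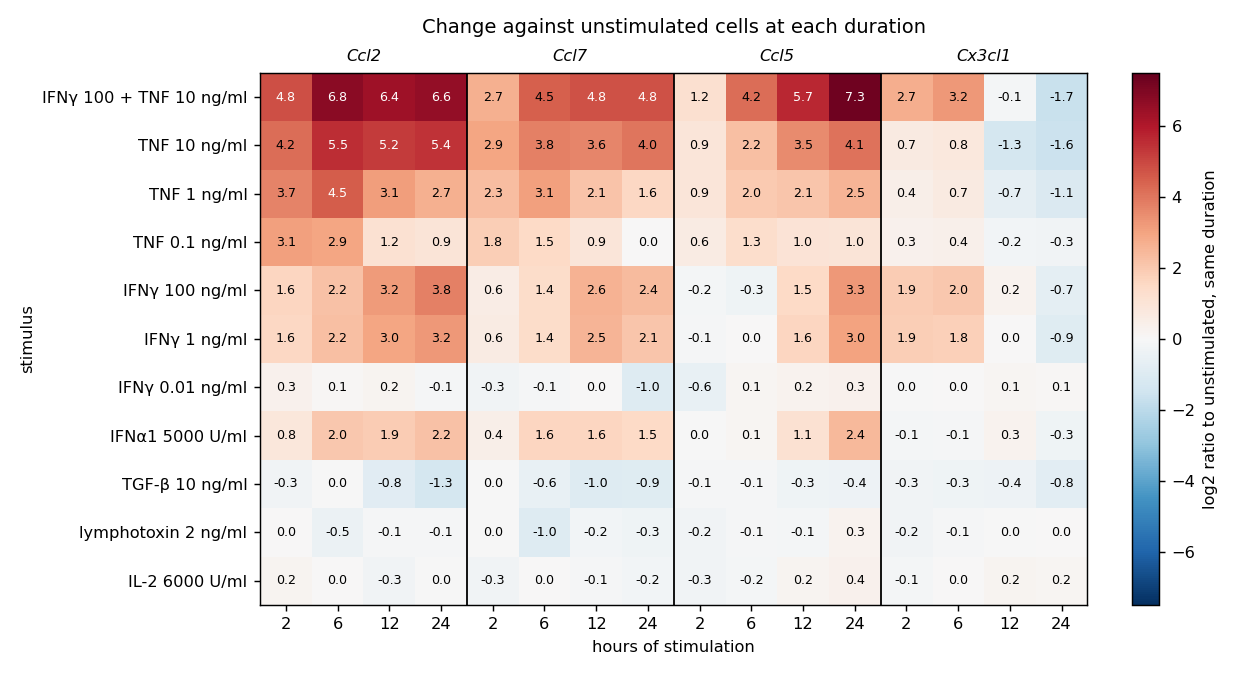
Log2 ratio of CPM (with a prior count of 2) to the unstimulated library of the same duration, for 11 stimuli (rows) and the 4 members at 2, 6, 12 and 24 h (columns). Ccl2 with the combination is 4.83 to 6.78 above unstimulated cells, and Cx3cl1 with the combination is 2.70 and 3.25 above them at 2 h and 6 h but 0.14 and 1.70 below them at 12 h and 24 h.

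Ccl2, which recruits monocytes, rose with the combination, TNF at 1 and 10 ng/ml, IFNγ at 1 and 100 ng/ml and IFNα1. It stood at 1073, 1773, 2560 and 2199 CPM with the combination at 2, 6, 12 and 24 h, against 37.5, 15.9, 30.7 and 22.7 CPM in unstimulated cells. TNF at 10 ng/ml gave 684, 740, 1154 and 982 CPM, and IFNγ at 100 ng/ml gave 115, 73.5, 289 and 316 CPM. With IFNα1 it was at 67.2, 66.3, 114 and 105 CPM. At each duration the order was therefore combination, TNF, IFNγ, IFNα1 and unstimulated, and none of the stimulated libraries overlapped the unstimulated ones. The fitted log2 change against unstimulated cells was 6.24 ± 0.56 with the combination (SE, 75.6-fold, adjusted p = 7.73e-11). It was 5.12 ± 0.54 with TNF at 10 ng/ml (adjusted p = 2.03e-08), the 7th highest change of 12203 genes. IFNγ at 100 ng/ml gave 2.91 ± 0.51 (adjusted p = 8.31e-05) and IFNα1 gave 1.78 ± 0.51 (adjusted p = 0.0211). With the 2 h and 6 h libraries alone, neither the IFNγ change (1.87, adjusted p = 0.0889) nor the IFNα1 change (1.44, adjusted p = 0.266) was called. The IFNα1 call was lost without the 6 h, the 12 h or the 24 h libraries (adjusted p = 0.132, 0.16 and 0.0967) and in the fit without the duration term (adjusted p = 0.0799).

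Ccl7, the neighbouring gene and likewise a monocyte chemokine, rose with the same stimuli as Ccl2 except IFNα1, with smaller fitted changes (the difference between the genes was not tested). With the combination it was at 63.7, 118, 260 and 235 CPM over the 4 durations, against 9.90, 5.06, 9.16 and 8.16 CPM in unstimulated cells. TNF at 10 ng/ml gave 78.1, 73.3, 117 and 134 CPM, and IFNγ at 100 ng/ml gave 14.8, 13.4, 56.9 and 43.1 CPM. At 2 h the combination library was below the TNF library, the reverse of Ccl2 in the same pair of libraries, and from 6 h onward it was above. The fitted log2 change was 4.34 ± 0.44 with the combination (adjusted p = 1.14e-09), 3.64 ± 0.45 with TNF at 10 ng/ml (adjusted p = 3.76e-07) and 1.91 ± 0.48 with IFNγ at 100 ng/ml (adjusted p = 0.00374). Without the 12 h libraries the IFNγ value was 1.60 and its call was lost (adjusted p = 0.101), as it was in the 2 h and 6 h libraries alone (0.95, adjusted p = 0.445). IFNα1 gave 13.6, 16.2, 28.9 and 23.2 CPM and a log2 change of 1.34 ± 0.49, which missed the threshold (adjusted p = 0.0858, 95% interval 0.34 to 2.34). DESeq2 called that change (adjusted p = 0.0224), and so did edgeR without the 2 h libraries (1.62, adjusted p = 0.0134).

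Across the 48 libraries log2 CPM of Ccl2 and Ccl7 had a Pearson r of 0.980, although the counts were not in a fixed ratio. There were 9.35 to 16.8 Ccl2 counts for each Ccl7 count with the combination, 7.33 to 10.1 with TNF at 10 ng/ml and 2.78 to 3.78 in unstimulated cells. The ranges of the combination and of TNF did not overlap that of unstimulated cells. IFNα1 (3.95 to 4.95) also lay above the unstimulated range, and TGF-β (2.09 to 4.76) spanned it. The correlation is a description over libraries that share cell line, durations and stimuli.

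Ccl5, which attracts T cells and monocytes, rose with the combination and with TNF at 10 ng/ml, and its change built up over time. With the combination it was at 31.6, 222, 1291 and 2465 CPM at 2, 6, 12 and 24 h, against 13.3, 12.1, 25.1 and 15.2 CPM in unstimulated cells. TNF at 10 ng/ml gave 25.3, 58.1, 290 and 262 CPM. The lowest combination library, at 2 h, was little above the highest unstimulated one, and the lowest TNF library barely so, whereas the later libraries were far apart. The fitted log2 change was 5.28 ± 0.64 with the combination (38.8-fold, adjusted p = 3.50e-08) and 2.90 ± 0.62 with TNF at 10 ng/ml (adjusted p = 0.00121). The TNF call was lost without the 12 h libraries (2.58, adjusted p = 0.0725), in the 2 h and 6 h libraries alone (1.66, adjusted p = 0.243) and with the compared groups fitted alone (2.96, adjusted p = 0.055).

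The interferons left Ccl5 near the unstimulated level at 2 h and 6 h and above it later. IFNγ at 100 ng/ml gave 11.8, 9.70, 69.8 and 147 CPM, IFNγ at 1 ng/ml gave 12.5, 12.3, 78.2 and 123 CPM, and IFNα1 gave 13.1, 13.3, 54.8 and 81.4 CPM. Over all durations none of these was called (log2 changes 1.46 ± 0.64, 1.42 ± 0.64 and 1.04 ± 0.65, adjusted p = 0.098, 0.137 and 0.371). Without the 2 h libraries both IFNγ doses were called (1.90 and 1.83, adjusted p = 0.0206 and 0.0323). In the 12 h and 24 h libraries alone, IFNγ raised Ccl5 by 2.45 at 100 ng/ml (adjusted p = 0.00513, 27.8% of genes called in either direction) and by 2.34 at 1 ng/ml (adjusted p = 0.00788, 24.0%). With the 2 h and 6 h libraries alone the values were -0.17 and -0.015 (adjusted p = 0.932 and 0.997).

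Cx3cl1, the membrane-anchored chemokine, was high early and low late, and its fitted change over 4 durations averages over both. With the combination it was at 273, 229, 16 and 9.91 CPM at 2, 6, 12 and 24 h, against 41.8, 23.9, 17.7 and 32.8 CPM in unstimulated cells. IFNγ at 100 ng/ml gave 158, 96.8, 20.9 and 19.96 CPM, and TNF at 10 ng/ml gave 67.1, 42.4, 6.92 and 10.6 CPM. All 3 stimuli were above unstimulated cells at 2 h and 6 h, and all 3 were below them at 24 h. Over all durations the combination was called higher, by 1.76 ± 0.54 (adjusted p = 0.00868), while IFNγ at 100 ng/ml (1.05 ± 0.55, adjusted p = 0.17, 95% interval -0.06 to 2.16) and TNF at 10 ng/ml (-0.12 ± 0.58, adjusted p = 0.915, 95% interval -1.29 to 1.05) were not. Without the 24 h libraries IFNγ at 100 ng/ml was called (1.57, adjusted p = 0.0296). The combination call was lost without the 2 h libraries (1.33, adjusted p = 0.12), without the 6 h libraries (0.97, adjusted p = 0.267) and with the compared groups alone (1.30, adjusted p = 0.353).

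The early and the late libraries were fitted separately, with 1 library per group at each of 2 durations and no replicates. The p-values of these fits rest on how far the 2 durations disagree, pooled over all groups. The 2 fits gave changes of Cx3cl1 in opposite directions. In the 2 h and 6 h libraries it rose with the combination by 3.0 (adjusted p = 3.94e-12), with IFNγ at 100 ng/ml by 1.97 (adjusted p = 4.24e-09), with IFNγ at 1 ng/ml by 1.83 (adjusted p = 1.01e-08), with TNF at 10 ng/ml by 0.75 (adjusted p = 0.00154) and with TNF at 1 ng/ml by 0.53 (adjusted p = 0.0382). In the 12 h and 24 h libraries it fell with TNF at 10 ng/ml by 1.52 (adjusted p = 0.00918) and with the combination by 0.99 (adjusted p = 0.0285). In the late libraries IFNγ at 100 ng/ml gave -0.29 (adjusted p = 0.537). Of all genes, 15.3% were called in either direction with the combination in the early libraries and 43.8% in the late ones. For TNF at 10 ng/ml these shares were 2.33% and 19.6%. In the early libraries 3.67% of genes were called with IFNγ at 100 ng/ml, 2.24% with IFNγ at 1 ng/ml and 0.856% with TNF at 1 ng/ml. IFNα1 left Cx3cl1 at 38.1, 22.8, 21.1 and 26.4 CPM, with a log2 change of -0.07 ± 0.58 (adjusted p = 0.964, 95% interval -1.25 to 1.11).

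The change of the stimulus effect with time was tested as a slope on log2 hours, the gain in log2 change for each doubling of the time, less that of unstimulated cells. With the combination the slope was 1.66 ± 0.22 for Ccl5 (adjusted p = 1.45e-05), 0.61 ± 0.20 for Ccl7 (adjusted p = 0.0372) and -1.17 ± 0.28 for Cx3cl1 (adjusted p = 0.00575), so 2 members were called with a higher slope and 1 with a lower one (8.04% and 9.37% of genes). For Ccl2 it was 0.46 ± 0.21 (adjusted p = 0.14, 95% interval 0.03 to 0.89). Ccl5 was the 1 member whose slope was called with TNF at 10 ng/ml (0.91 ± 0.22, adjusted p = 0.0269, 1.06% of genes), with IFNγ at 100 ng/ml (1.09 ± 0.24, adjusted p = 0.00627, 3.47%) and with IFNγ at 1 ng/ml (0.97 ± 0.23, adjusted p = 0.0182, 2.35%). Cx3cl1 slopes with these 3 stimuli were -0.68 ± 0.30, -0.74 ± 0.27 and -0.78 ± 0.28 and were not called (adjusted p = 0.294, 0.111 and 0.111). DESeq2 called both IFNγ slopes of Cx3cl1 (adjusted p = 0.0481 and 0.0407). Of these slopes, only that of Ccl5 with the combination stayed called whichever duration was left out. Without the 6 h libraries, slopes of Ccl2 with the combination (0.51, adjusted p = 9.64e-05), TNF at 10 ng/ml (0.36, adjusted p = 0.00969), IFNγ at 100 ng/ml (0.61, adjusted p = 0.0001) and IFNγ at 1 ng/ml (0.48, adjusted p = 0.00101) were called, and so were the 3 Cx3cl1 slopes (-0.68, -0.72 and -0.77, adjusted p = 1.42e-06, 4.09e-08 and 2.27e-08). Leaving out 6 h also raised the number of all genes with a called slope, in either direction. It was 415 against 297 with all durations for TNF at 10 ng/ml. For IFNγ it was 1001 against 842 at 100 ng/ml and 720 against 616 at 1 ng/ml. Without the 24 h libraries the combination's Cx3cl1 slope was -0.64 (adjusted p = 0.554) and the Ccl5 slope with IFNγ at 100 ng/ml was 0.69 (adjusted p = 0.478).

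Set against TNF at 10 ng/ml alone, the combination raised Ccl5 and Cx3cl1, 2 of the 4 members (9.12% of genes higher). Ccl5 was higher in the combination at all 4 durations, by 1.25, 3.82, 4.45 and 9.40 times in CPM, with a fitted log2 change of 2.37 ± 0.51 (adjusted p = 0.00117). Cx3cl1 was 4.07, 5.41, 2.31 and 0.93 times its TNF level, with a fitted log2 change of 1.88 ± 0.53 (adjusted p = 0.0138). Ccl2 was 1.57, 2.40, 2.22 and 2.24 times its TNF level, a log2 change of 1.12 ± 0.44 that missed the threshold (adjusted p = 0.0822, 95% interval 0.23 to 2.01). With the 12 h and 24 h libraries alone, Ccl2 and Ccl7 were called higher as well, by 1.16 and 0.98 (adjusted p = 0.00102 and 0.00142, 18.6% of genes called in either direction), as they were without the 2 h libraries (1.18 and 0.88, adjusted p = 0.0442 and 0.0232). Without the duration term neither Ccl5 (adjusted p = 0.0792) nor Cx3cl1 (adjusted p = 0.161) was called, and leaving out the 2 h, 6 h or 12 h libraries ended the Cx3cl1 call (adjusted p = 0.0693, 0.186 and 0.067). The compared groups alone gave 2.06 for Ccl5 (adjusted p = 0.0625).

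Set against IFNγ at 100 ng/ml alone, the combination raised Ccl2 (3.33 ± 0.48, adjusted p = 4.94e-06), Ccl7 (2.43 ± 0.37, adjusted p = 1.68e-05) and Ccl5 (3.81 ± 0.55, adjusted p = 6.25e-06), 3 of 4 members where 8.49% of genes were higher. Cx3cl1 differed by 0.71 ± 0.49 (adjusted p = 0.362, 95% interval -0.29 to 1.71). It was called higher with the combination in the early libraries alone (1.03, adjusted p = 4.82e-06, 3.40% of genes called) and gave -0.70 in the late ones (adjusted p = 0.205). TNF at 10 ng/ml set against IFNγ at 100 ng/ml gave 2 higher members (4.90% of genes higher), Ccl2 by 2.21 ± 0.46 (adjusted p = 0.000909) and Ccl7 by 1.72 ± 0.38 (adjusted p = 0.00163), the Ccl7 call being lost without the 6 h libraries (1.58, adjusted p = 0.0507). Ccl5 gave 1.44 ± 0.53 (adjusted p = 0.0839) and was called without the 2 h (1.49, adjusted p = 0.0497) or the 24 h libraries (1.89, adjusted p = 0.0344). For Cx3cl1 this comparison gave -1.17 ± 0.54 over all durations (adjusted p = 0.189). With the 2 groups fitted alone, Cx3cl1 was called lower with TNF (-1.22, adjusted p = 0.000166). It was called lower with TNF than with IFNγ in the early libraries alone (-1.22, adjusted p = 2.02e-06, 3.29% of genes called) and in the late ones alone (-1.23, adjusted p = 0.0453, 13.1%).

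Whether the 2 cytokines together gave more than the sum of their log2 changes was tested as a contrast of the 4 groups. No member departed from the sum at the threshold, where 0.0819% of genes did, and Ccl2 and Ccl7 had an unadjusted p under 0.05. The departures were -1.79 ± 0.66 for Ccl2 (adjusted p = 0.259), -1.21 ± 0.59 for Ccl7 (adjusted p = 0.41), 0.91 ± 0.81 for Ccl5 (adjusted p = 0.696) and 0.84 ± 0.75 for Cx3cl1 (adjusted p = 0.702). In the late libraries alone, the combination's Ccl2 change was called smaller than the sum (-2.37, adjusted p = 0.00456, 0.769% of genes called). In CPM above the unstimulated library, the combination's gain in Ccl5 was 1.75, 4.81, 4.09 and 6.46 times the summed gains of the single cytokines at 2, 6, 12 and 24 h. For Ccl2 it was 1.43, 2.25, 1.83 and 1.74 times, and for Ccl7 0.74, 1.48, 1.62 and 1.41 times. For Cx3cl1 it was 1.64 and 2.25 times at 2 h and 6 h, and at 12 h and 24 h the combination was below unstimulated cells. With IFNγ alone Ccl5 was below unstimulated cells at 2 h (11.8 against 13.3 CPM) and 6 h (9.70 against 12.1 CPM). This makes its summed gains smaller there. This linear scale carries no test, and how many of all genes exceed their summed gains on it was not counted.

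**Figure D3:**
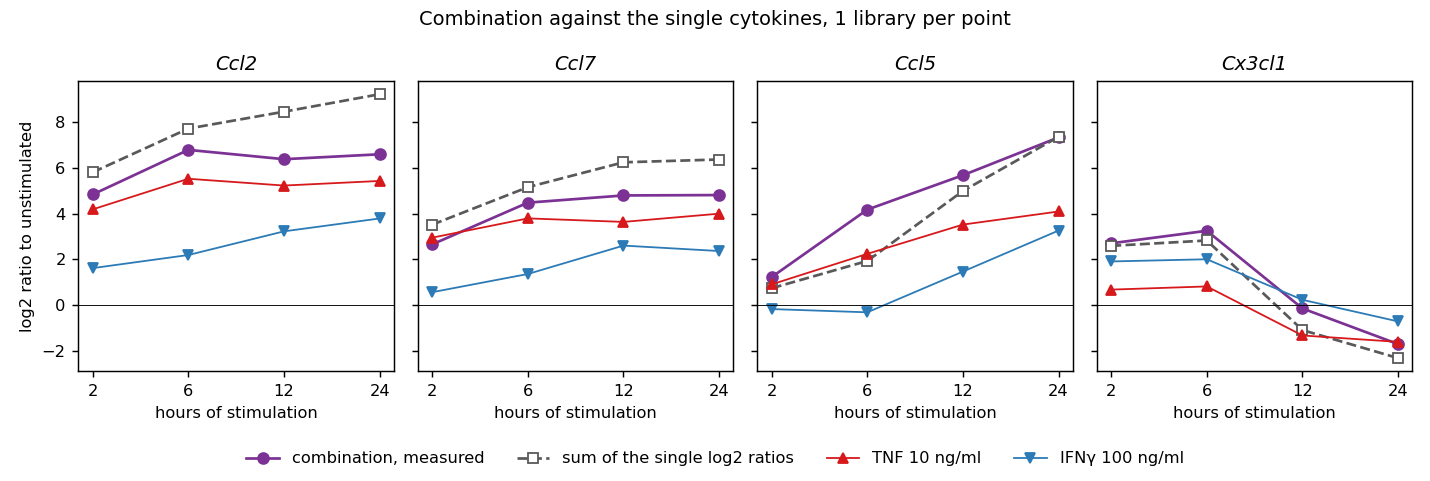
Log2 ratio of CPM to the unstimulated library at 2, 6, 12 and 24 h (evenly spaced). Lines are the combination, the sum of the 2 single log2 ratios (dashed), TNF at 10 ng/ml and IFNγ at 100 ng/ml. Ccl2 and Ccl7 with the combination lie below the dashed sum at every duration, and Ccl5 lies above it at 2, 6 and 12 h and reaches it at 24 h (7.32 measured, 7.35 summed).

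The spread between the TNF doses was wider at 12 h and 24 h than at 2 h for Ccl2, Ccl7 and Ccl5. Ccl2 was at 323, 124, 69.4 and 43.7 CPM with TNF at 0.1 ng/ml, at 495, 372, 269 and 148 CPM at 1 ng/ml, and at 684, 740, 1154 and 982 CPM at 10 ng/ml. In CPM the 2 lower doses were thus highest at 2 h and lowest at 24 h, and the highest dose was not. Unstimulated Ccl2 also fell from 37.5 CPM at 2 h to 15.9 CPM at 6 h. As log2 ratios to the unstimulated library of the same duration, 1 ng/ml gave 3.71, 4.52, 3.12 and 2.69, highest at 6 h. On that scale 0.1 ng/ml gave 3.10, 2.95, 1.17 and 0.94, and 10 ng/ml gave 4.18, 5.52, 5.22 and 5.42. The ratio of TNF at 10 ng/ml to 1 ng/ml in Ccl2 CPM was 1.38, 1.99, 4.30 and 6.64 over the durations, in Ccl7 1.54, 1.62, 2.86 and 5.43 and in Ccl5 1.02, 1.21, 2.67 and 2.95. Over all durations no member differed between these doses at the threshold (0.238% of genes called), with log2 changes of 1.47 ± 0.45 for Ccl2 (adjusted p = 0.327), 1.24 ± 0.36 for Ccl7 (adjusted p = 0.295) and 0.93 ± 0.52 for Ccl5 (adjusted p = 0.731). With the 12 h and 24 h libraries alone, 10 ng/ml was above 1 ng/ml for Ccl2 (2.39, adjusted p = 2.39e-05) and Ccl7 (1.97, adjusted p = 6.71e-05), where 3.06% of genes were called. With the 2 h and 6 h libraries alone the values were 0.78 and 0.67 (adjusted p = 1 each). Without the 2 h libraries both were called (1.80 and 1.47, adjusted p = 0.0342 and 0.00866).

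TNF at 1 ng/ml raised Ccl2 by 3.65 ± 0.52 (adjusted p = 3.06e-05) and Ccl7 by 2.40 ± 0.46 (adjusted p = 0.0019) against unstimulated cells. The Ccl7 call was lost without the 6 h libraries (2.11, adjusted p = 0.154). Ccl5 at this dose stood at 24.8, 48, 109 and 88.7 CPM, a log2 change of 1.97 ± 0.63 (adjusted p = 0.0874), and was called by DESeq2 (adjusted p = 0.044) and without the 2 h libraries (2.27, adjusted p = 0.0239). At 0.1 ng/ml the log2 changes were 2.38 ± 0.51 for Ccl2 (adjusted p = 0.105), 1.26 ± 0.50 for Ccl7 (adjusted p = 0.918) and 1.07 ± 0.66 for Ccl5 (adjusted p = 0.994). All 3 of these transcripts were above the unstimulated library at each of the 4 durations. Between 1 and 0.1 ng/ml no member was called by edgeR (0% of genes, 521 at an unadjusted p under 0.05) or by DESeq2, with 1.27 ± 0.45 for Ccl2, 1.14 ± 0.41 for Ccl7 and 0.90 ± 0.57 for Ccl5 (adjusted p = 0.999 each). With the 12 h and 24 h libraries alone, 1 ng/ml was above 0.1 ng/ml for Ccl2 (1.87, adjusted p = 0.002) and Ccl7 (1.37, adjusted p = 0.0362), where 0.507% of genes were called.

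The IFNγ doses of 100 and 1 ng/ml gave nearly the same levels, and 0.01 ng/ml gave levels close to unstimulated cells. Ccl2 was at 115, 73.5, 289 and 316 CPM with 100 ng/ml, at 112, 75.7, 243 and 216 CPM with 1 ng/ml and at 47.2, 16.9, 35.8 and 21.4 CPM with 0.01 ng/ml. Against unstimulated cells, 1 ng/ml raised Ccl2 by 2.61 ± 0.51 (adjusted p = 0.000435, and 0.134 in the early libraries alone) and Ccl7 by 1.79 ± 0.48 (adjusted p = 0.00975), and the Ccl7 call was lost without the 6 h, 12 h or 24 h libraries (adjusted p = 0.0547, 0.18 and 0.0802). Against 0.01 ng/ml, 1 ng/ml raised the same 2 members (8.46% of genes higher), Ccl2 by 2.44 ± 0.50 (adjusted p = 0.000961) and Ccl7 by 2.10 ± 0.49 (adjusted p = 0.00366). This Ccl7 call was lost without the 12 h or the 24 h libraries (adjusted p = 0.106 and 0.0752). In the early libraries alone both of these calls were lost (1.62 for Ccl2 and 1.16 for Ccl7, adjusted p = 0.264 and 0.59), while Cx3cl1 was called higher with 1 ng/ml (1.85, adjusted p = 1.41e-08, 1.32% of genes called). In the late libraries alone Ccl5 was called higher as well (2.05, adjusted p = 0.0135, 23.3% of genes called). Between 100 and 1 ng/ml the Ccl2 difference was 0.30 ± 0.45 (adjusted p = 1, 95% interval -0.61 to 1.21), and no gene was called (0%) by edgeR or DESeq2, with 303 genes at an unadjusted p under 0.05. Cx3cl1 at 1 ng/ml was 3.72 and 3.43 times its level at 0.01 ng/ml at 2 h and 6 h, and 0.94 and 0.49 times at 12 h and 24 h.

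**Figure D4:**
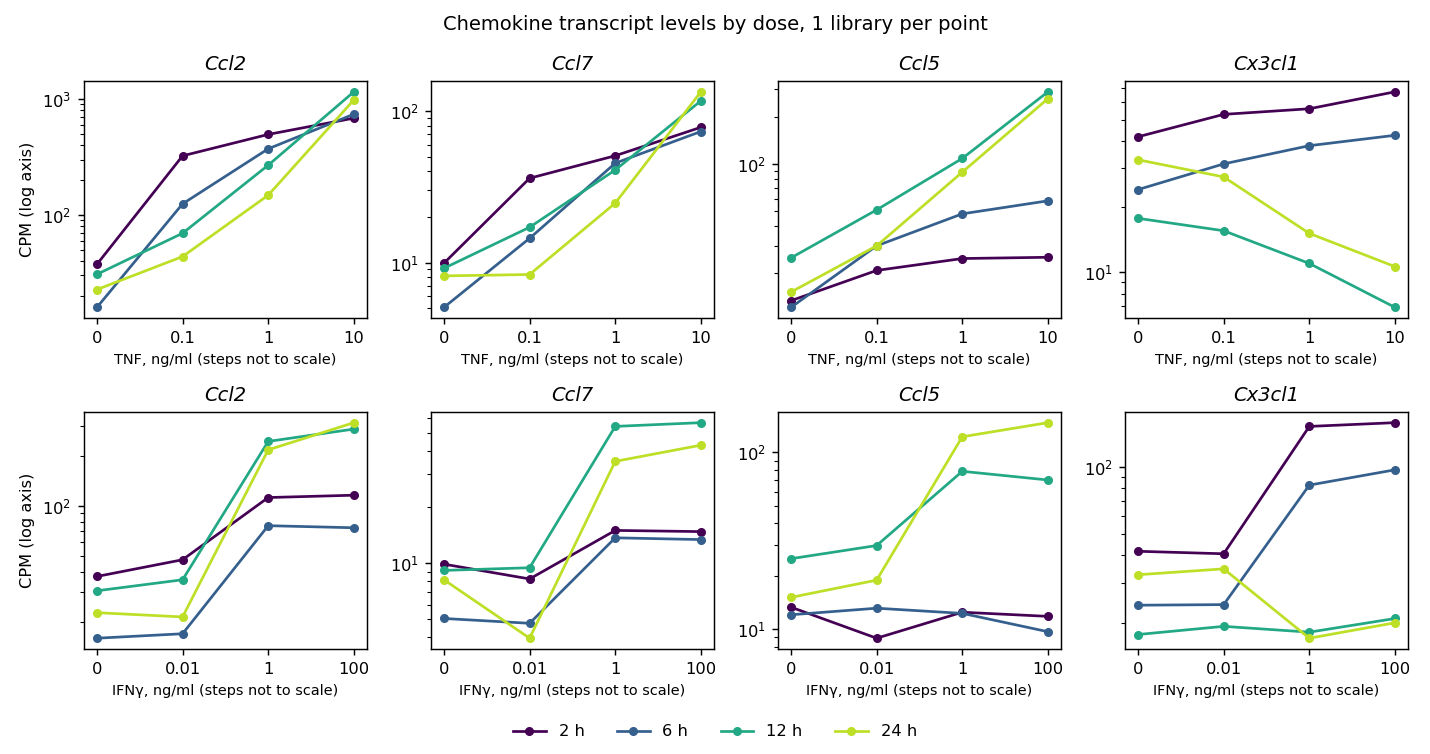
CPM (log axis) of each member against TNF dose (top) and IFNγ dose (bottom) in ng/ml, with 1 line per duration, 1 library per point and unstimulated cells at dose 0. Ccl2 lines for 12 h and 24 h climb to 1154 and 982 CPM at the top TNF dose, whereas IFNγ lines level off between 1 and 100 ng/ml.

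IFNγ at 100 ng/ml and IFNα1, ligands of different interferon receptors, did not differ at the threshold for any member (16.1% of genes called). Ccl2 was higher with IFNγ by 1.14 ± 0.46 (adjusted p = 0.0883, 95% interval 0.20 to 2.07) and Cx3cl1 by 1.12 ± 0.55 (adjusted p = 0.164, 95% interval 0.01 to 2.23). At 2 h Cx3cl1 stood at 158 CPM with IFNγ and 38.1 CPM with IFNα1, and at 12 h at 20.9 and 21.1 CPM. In the early libraries alone the Cx3cl1 difference was called (2.06, adjusted p = 4.20e-09, 1.42% of genes called), and in the late libraries alone that of Ccl2 was (1.46, adjusted p = 0.000293, 25.4%), as was that of Ccl7 (0.92, adjusted p = 0.00833). Without the 2 h libraries the Ccl2 difference was also called (1.21, adjusted p = 0.0488).

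The column names give the same 24 index sequences to the 2 h and 6 h libraries and to the 12 h and 24 h ones. The labels do not say whether these sets were handled apart, which could not be told apart from early against late durations. With lymphotoxin, IL-2 and no stimulus, levels followed the same course over the durations. Ccl2 lay between 37.5 and 42.6 CPM at 2 h, 11.5 and 16.1 CPM at 6 h, 25.8 and 30.7 CPM at 12 h, and 21.7 and 22.7 CPM at 24 h in these 3 groups. Cx3cl1 lay between 35.4 and 41.8, 22.2 and 24.7, 17.3 and 20.3, and 32.8 and 36.4 CPM. The 95% intervals of the members' log2 changes reached from -1.56 to 1.38 with lymphotoxin and from -1.48 to 1.46 with IL-2. TGF-β left all 4 members at or below the unstimulated library at every duration, with Ccl2 at 30.8, 15.9, 17 and 9.01 CPM, and intervals from -1.76 to 1.26. With the 12 h and 24 h libraries alone, Ccl2 was lower with TGF-β by a log2 change of -1.04 (adjusted p = 0.0494, 9.28% of genes called).

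Ordered by mean log2 CPM over the 4 durations, few neighbouring stimuli differed by more than 1 SD of their difference. Among 11 neighbouring pairs this held for 3 pairs in Ccl2, 2 in Ccl7, 3 in Ccl5 and 1 in Cx3cl1. For Ccl2 the steps lay between the combination and TNF at 10 ng/ml, between TNF at 10 and 1 ng/ml, and between IFNα1 and IFNγ at 0.01 ng/ml. For Ccl7 they lay between TNF at 10 and 1 ng/ml, and between TNF at 0.1 ng/ml and unstimulated cells. For Ccl5 the combination stood above TNF at 10 ng/ml, that above TNF at 1 ng/ml, and IFNα1 above IL-2. For Cx3cl1 the one step was between IFNγ at 100 and 1 ng/ml, of 0.18 ± 0.08, and TGF-β had the lowest mean of all.

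Per kilobase of exon, Ccl2 was the most abundant of the 4 transcripts in 40 of 48 libraries and Ccl5 in the other 8. These 8 were the combination at 24 h and libraries in which no member was called over all durations. The latter were IL-2 and TGF-β at 12 h and 24 h, lymphotoxin at 6 h and 24 h, and IFNγ at 0.01 ng/ml at 24 h. With IL-2 at 12 h, for example, Ccl5 made up 43.7% and Ccl2 33.1%. With the combination Ccl2 made up 83.8, 78.1, 57.3 and 40.3% of the summed CPM per kilobase of the 4 members over the durations, against 47.2, 35.9, 39.1 and 36.7% in unstimulated cells. Ccl5 made up 2.93, 11.6, 34.3 and 53.5% with the combination, against 19.9, 32.3, 37.8 and 29.1% in unstimulated cells. Cx3cl1 made up 6.17% at 2 h and 0.053% at 24 h with the combination, against 15.2 and 15.4% in unstimulated cells. The sum itself was 1125, 1995, 3923 and 4796 CPM per kilobase with the combination, against 69.8, 39, 69.1 and 54.2 in unstimulated cells. These shares carry no test.

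**Figure D5:**
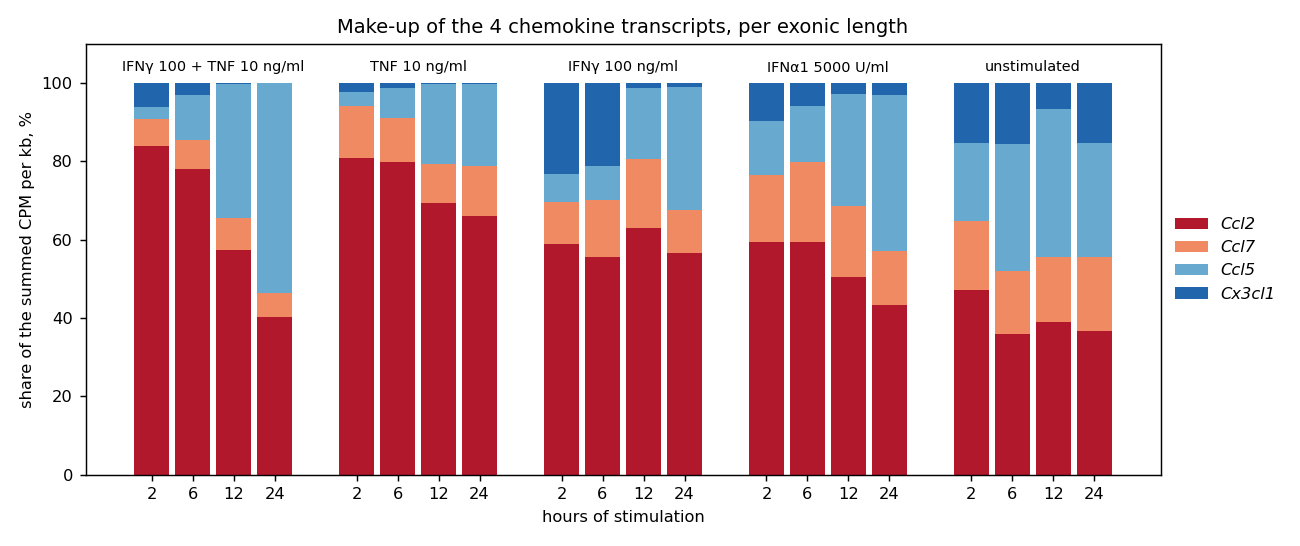
Share (%) of each member in the summed CPM per kilobase of exon of the 4 members, at 2, 6, 12 and 24 h, with 1 library per bar. Ccl5 takes 53.5% of the bar for the combination at 24 h, against 29.1% in unstimulated cells.

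Of 18 other CC chemokines, 3 had enough counts to be tested, and 2 of them, Ccl4 and Ccl9, rose with the combination (20.9% of all genes higher). In unstimulated libraries Ccl4 had at most 10 counts and Ccl9 at most 5. Both passed the filter on low counts through stimulated libraries, so that they rose is in part set by the filter. Ccl4, which attracts monocytes and T cells, was at 1.74, 6.22, 98.3 and 63.0 CPM with the combination, against 0.43, 0.25, 1.61 and 0.91 CPM in unstimulated cells, a log2 change of 5.50 ± 0.57 (adjusted p = 9.81e-10). Like Ccl5, it was high in the late libraries. Ccl4 also rose with TNF at 10 ng/ml (3.72 ± 0.64), TNF at 1 ng/ml (2.72 ± 0.69), IFNγ at 100 ng/ml (3.98 ± 0.62), IFNγ at 1 ng/ml (3.80 ± 0.63) and IFNα1 (2.76 ± 0.69). Ccl9, a mouse monocyte chemokine, was low, with at most 56 counts in a library, and rose with the combination (2.80 ± 0.44) and with TNF at 10 ng/ml (3.27 ± 0.43) and 1 ng/ml (2.22 ± 0.47). Ccl25 was not called with any stimulus. The other 15, among them Ccl3 and Ccl8, had at most 9 counts in any library.

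Ccr2, Cx3cr1 and Ccr1, receptors of these chemokines, were almost without counts in these cells. Ccr2 had 1 count, Cx3cr1 had 12 and Ccr1 had 58 over the 48 libraries. Of 15 receptors and decoy receptors, Ccrl2 alone was tested. With 5 to 15 counts in unstimulated libraries, Ccrl2 passed the filter on low counts mainly through stimulated ones. That it rose is therefore in part set by the filter. This atypical receptor, which binds the chemoattractant chemerin rather than signalling itself, stood at 49.9, 100, 120 and 84.3 CPM with the combination, against 0.72, 1.85, 1.29 and 1.43 CPM in unstimulated cells. It rose by 6.00 ± 0.39 (adjusted p = 1.38e-14, 20.9% of all genes higher). It also rose with TNF at 10 ng/ml by 3.60 ± 0.45 (9.83%) and with IFNγ at 100 ng/ml by 3.96 ± 0.43 (12.8%). TNF at 1 ng/ml (2.01%), IFNγ at 1 ng/ml (9.51%) and IFNα1 (6.18%) raised it as well.

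Of 5 proteases that are known to cut these chemokines, Adam10, Adam17 and Mmp2 were tested. Adam10 and Adam17 shed fractalkine from the membrane. Adam17 rose with TNF at 10 ng/ml (0.31 ± 0.06, adjusted p = 0.000475, 9.83% of all genes higher). It also rose with the combination (0.17 ± 0.06, adjusted p = 0.023, 20.9% higher). Adam10 gave 0.06 ± 0.07 with the combination (adjusted p = 0.524). Mmp2, which trims Ccl7 at its amino terminus, fell with the combination (-0.70 ± 0.15, adjusted p = 0.000328, 21.2% of all genes lower). It also fell with IFNγ at 100 ng/ml (-0.41 ± 0.15, adjusted p = 0.044, 9.30% lower). The slopes of Adam17 and Mmp2 on log2 hours with the combination were called lower (9.37% of genes), so both changes differed between durations. Ctss and Dpp4 had at most 2 counts in any library.

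All 14 regulators were tested, and 12 rose with the combination (20.9% of all genes higher), 11 with TNF at 10 ng/ml (9.83%) and 8 with TNF at 1 ng/ml (2.01%). With IFNγ at 100 ng/ml, IFNγ at 1 ng/ml and IFNα1, 6 rose each (12.8%, 9.51% and 6.18% of all genes), and none was called lower with these 6 stimuli. Their median log2 changes were 1.19, 0.79, 0.52, 0.31, 0.32 and 0.16. Nfkbia, the NF-κB inhibitor that NF-κB itself induces, rose by 3.27 ± 0.19 with the combination and by 2.68 ± 0.20 with TNF at 10 ng/ml, and gave 0.33 ± 0.22 with IFNγ at 100 ng/ml (adjusted p = 0.281). Relb rose by 2.12 ± 0.17 with the combination and 1.91 ± 0.17 with TNF at 10 ng/ml. Irf1, an interferon-induced transcription factor, rose by 4.61 ± 0.31 with the combination, 1.84 ± 0.30 with TNF at 10 ng/ml and 3.89 ± 0.31 with IFNγ at 100 ng/ml. Zfp36, which binds and destabilises AU-rich mRNAs, rose by 2.34 ± 0.12 with the combination, 1.17 ± 0.12 with TNF at 10 ng/ml and 1.20 ± 0.12 with IFNγ at 100 ng/ml. Of the regulators, Irf3 was not called with any of these 6 stimuli.

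Over the 48 libraries the genes most like each member in log2 CPM, by Pearson r and without predicted genes, overlapped for Ccl2 and Ccl7. For Ccl2 they were Ccl7 (0.980), Acod1 (0.963), Nab1 (0.931), Casp4 (0.918) and Vcam1 (0.913). For Ccl7 they were Ccl2, Acod1 (0.960), Arhgef3 (0.921), Casp4 (0.912) and St3gal1 (0.910). For Ccl5 they were Arhgdib (0.962), Heatr9 (0.949), H2-Q6 (0.944), Glipr2 (0.937) and Carhsp1 (0.937). Heatr9 lies on the same strand as Ccl5, 3602 bp downstream of it, and had 296 counts in all, 107 of them in 1 library, so reads running past Ccl5 were not told apart from its own. For Cx3cl1 the highest values were lower, with Slc44a1 (0.854), Rnd3 (0.847), Igf2bp2 (0.843), Fosl2 (0.819) and Cnn3 (0.806). Among the members, r was 0.775 for Ccl2 and Ccl5, 0.826 for Ccl7 and Ccl5, and -0.384 for Ccl5 and Cx3cl1. These are descriptions over libraries that share stimuli and durations.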

How the data were processed

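Bulk RNA of 48 libraries was sequenced on an Illumina HiSeq from TruSeq stranded mRNA libraries, per the labels. The authors deposited 1 table of raw read counts per gene; HISAT and GRCm38 come from the submitters' processing notes, and for the HISAT version, the counter, its strand setting and the annotation the sources used here give nothing. Each column was matched to its library by its name. The members, gene lists and tests were chosen with earlier results of these data known. Named genes are the members, the listed pathway genes and, by rule, the 5 most alike in Pearson r.

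Counts were filtered with filterByExpr (minimum count 10, minimum total 15) and fitted with edgeR 4.0.16 in R 4.3.3 (TMM, robust quasi-likelihood, stimulus plus duration as a factor, all 48 libraries). CPM is the count scaled to a common TMM-adjusted library total, log2 CPM has a prior count of 2, SE is the log2 change over the root of F, and intervals are 95%. Slopes on log2 hours were fitted per stimulus. P-values were adjusted after Benjamini and Hochberg over all tested genes. The code was tested on simulated data. Alternatives were DESeq2 1.42.0 as test and for size factors, library totals, no low-count filter, no duration term and the compared groups alone. Others were early or late libraries alone, IL-2 in place of unstimulated cells, and each duration left out. Early and late fits had 1 library per group at each of 2 durations, so no replicates.

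Libraries of the same duration deviated together from their group means (264 pairs, r 0.262 to 0.798, median 0.547). In 792 pairs of other durations r was -0.636 to 0.517 (median -0.279). With 1 library per group and duration these deviations hold the shared course over time, so they cannot show a pairing apart from it. Durations are the pairing of the groups, and the duration term is that block. No 2 libraries held identical counts. Depth limits members at few counts, and intervals cover the spread between libraries, which includes differences between stimuli in their course over the durations.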

Additional observations from a re-analysis of the deposited data

Results flagged for a closer look

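Ccl5 with TGF-β had 1 library apart from the other 3. At 12 h it was at 19.8 CPM, against 11.3 to 12.3 CPM at the other durations, and the gap to the nearest library was 0.854 of the group's range in log2 CPM. Among 48 groups of 4 libraries examined this was the 1 such group, and chance gives about 1 in 20. The 12 h library was also the highest of the unstimulated cells.

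For 6 slopes on log2 hours, each tested as an interaction, the effect of a stimulus was called different between durations. Of these, only the Ccl5 slope with the combination stayed called whichever duration was left out. With the combination the slopes were 0.61 for Ccl7, 1.66 for Ccl5 and -1.17 for Cx3cl1 (8.04% of genes called higher and 9.37% lower). For Ccl5 they were also 0.91 with TNF at 10 ng/ml, 1.09 with IFNγ at 100 ng/ml and 0.97 with IFNγ at 1 ng/ml. Of all genes, 1.06%, 3.47% and 2.35% were called higher in these 3 tests.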

How the results depend on the processing

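With DESeq2 size factors, library totals without TMM, or IL-2 in place of unstimulated cells, no reported member changed its call or direction. Without TMM the median log2 change of all genes with the combination was -0.20. The cause of the changes below was not tested.

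With the 12 h and 24 h libraries alone, log2 changes of Cx3cl1 turned to -0.99 for the combination, -0.29 and -0.52 for IFNγ at 100 and 1 ng/ml, -0.70 for the combination against IFNγ, -0.62 for IFNγ at 1 against 0.01 ng/ml and -0.23 for IFNγ at 100 ng/ml against IFNα1. Calls were gained for Cx3cl1 with TNF at 10 ng/ml (-1.52), Ccl5 with TNF at 1 ng/ml (2.32), IFNγ at 100 and 1 ng/ml (2.45 and 2.34) and IFNγ at 1 against 0.01 ng/ml (2.05), Ccl7 with IFNα1 (1.59), Ccl2 and Ccl7 for the combination against TNF (1.16 and 0.98) and the Ccl2 departure from the sum (-2.37). Cx3cl1 for the combination against TNF lost its call (0.53).

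With the 2 h and 6 h libraries alone, Cx3cl1 turned to 0.75 and 0.53 with TNF at 10 and 1 ng/ml, and Ccl5 to -0.17 and -0.015 with IFNγ at 100 and 1 ng/ml. Calls were lost for Ccl5 with TNF at 10 ng/ml (1.66) and for the combination against TNF (1.49), for Ccl2 and Ccl7 with IFNγ at 100 ng/ml (1.87 and 0.95) and 1 ng/ml (1.87 and 0.98), for Ccl2 with IFNα1 (1.44), and for Ccl2 and Ccl7 with IFNγ at 1 against 0.01 ng/ml (1.62 and 1.16). They were gained for Cx3cl1 with IFNγ at 100 and 1 ng/ml (1.97 and 1.83), for IFNγ at 1 against 0.01 ng/ml (1.85) and for the combination against IFNγ (1.03). Further early and late calls between stimuli and doses are given with those comparisons.

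With the compared groups alone, calls were lost for Cx3cl1 with the combination (1.30) and its slope (-1.24), Ccl5 with TNF at 10 ng/ml (2.96) and for the combination against TNF (2.06), and the Ccl5 slope with IFNγ at 100 ng/ml (1.02). They were gained for Ccl5 with TNF at 1 and 0.1 ng/ml (1.99 and 1.00), Ccl7 with IFNα1 (1.35) and Ccl2 for the combination against TNF (1.05). Cx3cl1 for TNF at 10 ng/ml against IFNγ at 100 ng/ml also gained a call (-1.22). So did the slopes of Ccl2 and Ccl7 with IFNγ at 100 ng/ml (0.62 and 0.57) and 1 ng/ml (0.49 each). DESeq2 gained Ccl5 with TNF at 1 ng/ml (1.79), Ccl7 with IFNα1 (1.37) and slopes with IFNγ at 100 ng/ml of Ccl2 (0.63), Ccl7 (0.58) and Cx3cl1 (-0.77), and at 1 ng/ml of Cx3cl1 (-0.82). Without the low-count filter the slopes of Ccl7 with the combination (0.61) and of Ccl5 with TNF at 10 ng/ml (0.90) lost their call.

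Without the duration term, which is the replicate block here, Ccl2 with IFNα1 (1.73) and Ccl5 and Cx3cl1 for the combination against TNF (2.66 and 2.05) lost their call, and Cx3cl1 with TNF at 10 and 1 ng/ml turned to 0.13 and 0.052. The block changed the call or direction of no other reported member change. Genes called without and with it numbered 2388 and 5129 for the combination, 355 and 2091 for TNF at 10 ng/ml, 38 and 332 for TNF at 1 ng/ml, 615 and 2702 for IFNγ at 100 ng/ml, 355 and 1827 for IFNγ at 1 ng/ml, and 175 and 1131 for IFNα1.

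Leaving out 1 duration at a time gave, for Cx3cl1, 0.97 to 2.42 with the combination, -0.54 to 0.34 and -0.44 to 0.25 with TNF at 10 and 1 ng/ml, 0.65 to 1.57 with IFNγ at 100 ng/ml, -0.18 to 0.064 with IFNα1 and 1.51 to 2.08 for the combination against TNF. Ccl5 gave 2.48 to 3.40 and 1.76 to 2.27 with TNF at 10 and 1 ng/ml, and 0.59 to 1.90 and 0.74 to 1.83 with IFNγ at 100 and 1 ng/ml. Ccl7 gave 2.11 to 2.59 with TNF at 1 ng/ml, 1.60 to 2.30 and 1.45 to 2.15 with IFNγ at 100 and 1 ng/ml, 1.24 to 1.62 with IFNα1 and 0.54 to 0.88 for the combination against TNF. Ccl2 gave 1.62 to 2.06 with IFNα1 and 1.07 to 1.18 for the combination against TNF. Slopes with the combination were -0.092 to 0.66 for Ccl2, 0.15 to 0.85 for Ccl7 and -2.61 to -0.64 for Cx3cl1. With TNF at 10 ng/ml they were -0.043 to 0.45 for Ccl2, 0.89 to 1.02 for Ccl5 and -1.30 to -0.50 for Cx3cl1. With IFNγ at 100 ng/ml they were 0.61 to 0.77, 0.69 to 1.79 and -1.38 to -0.47 for the same 3 genes, and at 1 ng/ml 0.48 to 0.55, 0.72 to 1.46 and -1.39 to -0.54.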
